A study of Mus musculus with 16 samples.

Results

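The urea cycle is covered here by 8 genes, taken by symbol from the 55291 genes of the count table: the enzymes Nags, Cps1, Otc, Ass1, Asl and Arg1 and the mitochondrial carriers Slc25a15 and Slc25a13. All 8 passed the filter on low counts, and the smallest count of any of them in any library was 558. The levels come from polyadenylated RNA of mouse liver and liver tumours, with 2 libraries in each of 8 groups. The tumours carry the genotype label Arid1a KO/BcatEXON, with no time point. The Arid1a/b DKO livers were taken 9 days after tamoxifen with DMSO as vehicle. Arid1a KO livers were taken at 30 days after an agonist that the labels call NR1L3 agonist, at 30 days with DMSO, and at 9 days with DMSO. WT livers cover the same set, with agonist, with DMSO at 30 days and with DMSO at 9 days. The times of all liver groups, WT included, are counted from tamoxifen. The agonist-treated WT livers are labelled 9 days in their titles and 30 days elsewhere, and are treated here as 30-day livers. "NR1L3" is not a receptor symbol, and neither the meaning of BcatEXON nor the Cre driver, age or sex of the mice is stated in the labels. The labels also do not say whether the tumours came from different mice. Hepatocytes are named as the cell type, but the series describes whole tissue, and the libraries hold hepatocyte markers at high levels together with transcripts of the other cell type lists examined. Arid1a and Arid1b encode alternative subunits of the BAF chromatin remodelling complex.

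The urea cycle turns the ammonia released from amino acids into urea, and in mammals the complete cycle runs in the liver, mostly in hepatocytes around the portal vein. It starts in mitochondria, where carbamoyl phosphate is made and joined to ornithine to give citrulline, and ends in the cytosol, where citrulline is converted through argininosuccinate and arginine back to ornithine. Nags makes N-acetylglutamate, the activator that Cps1 needs to form carbamoyl phosphate. Otc joins carbamoyl phosphate to ornithine, Slc25a15 exchanges ornithine and citrulline across the inner membrane, and Slc25a13 (citrin) exports aspartate to the cytosol. Ass1 joins citrulline and aspartate, Asl splits the product into arginine and fumarate, and Arg1 splits arginine into urea and ornithine.

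The genes lie on 8 different chromosomes of GRCm38 and all are protein coding in GENCODE M21. Nags lies on chromosome 11 (102145513 to 102149477, plus strand), Cps1 on chromosome 1 (67123026 to 67231259, plus), Otc on chromosome X (10252305 to 10321024, plus) and Slc25a15 on chromosome 8 (22375551 to 22398597, minus). Slc25a13 lies on chromosome 6 (6041218 to 6217173, minus), Ass1 on chromosome 2 (31470207 to 31520672, plus), Asl on chromosome 5 (130011258 to 130029247, minus) and Arg1 on chromosome 10 (24915221 to 24927484, minus). Nags shares 443 exon bases (15.61% of its exon length) with the antisense gene Gm11586. The strand setting of the counting is not given in the sources used here, so reads of that stretch cannot be assigned to one of the pair, and Gm11586 itself had 3 to 28 counts per library.

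The RefSeq promoter table (GRCm38.p6) matched 5 of the 8 genes: Otc, Ass1, Nags, Slc25a13 and, with 2 windows, Slc25a15. The 250 bases before the start of 3 genes that passed a test in the tumours, Otc and Slc25a13 (both lower) and Nags (higher), are printed 5' to 3' on the strand of the gene. They differ in base composition and in the motifs they hold, and a link of either to the direction of the calls was not tested. Otc is shown from chrX:10252055-10252304 (plus strand), Slc25a13 from chr6:6217174-6217423 (minus strand) and Nags from chr11:102145263-102145512 (plus strand), and none of these windows holds an annotated exon. Capitals mark the matched motifs.
Otc: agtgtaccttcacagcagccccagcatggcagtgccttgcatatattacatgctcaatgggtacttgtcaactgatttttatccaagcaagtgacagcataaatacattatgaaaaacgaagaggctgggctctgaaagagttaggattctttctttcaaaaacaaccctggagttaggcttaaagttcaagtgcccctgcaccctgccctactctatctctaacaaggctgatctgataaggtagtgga
Slc25a13: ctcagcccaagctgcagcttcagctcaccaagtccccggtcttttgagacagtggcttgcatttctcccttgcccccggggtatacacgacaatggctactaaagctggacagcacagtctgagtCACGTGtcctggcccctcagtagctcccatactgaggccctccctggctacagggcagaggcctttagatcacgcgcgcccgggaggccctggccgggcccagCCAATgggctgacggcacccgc
Nags: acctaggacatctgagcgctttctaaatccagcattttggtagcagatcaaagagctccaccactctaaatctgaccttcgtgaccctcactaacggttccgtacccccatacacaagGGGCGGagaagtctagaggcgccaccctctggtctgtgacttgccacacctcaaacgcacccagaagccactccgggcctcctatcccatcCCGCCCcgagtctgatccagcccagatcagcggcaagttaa
Searched on both strands were TATAAA, the CCAAT box (CCAAT), the GC box (GGGCGG), CAAAGTCCA (an HNF4 element), TTGCNNAA (a C/EBP element) and the E-box CACGTG, which do not overlap one another in these windows. The Otc window held none of these strings, 1 CG dinucleotide and 43.6% G and C. The Slc25a13 window held 1 CCAAT and 1 CACGTG, with 11 CG dinucleotides. The Nags window held 2 GC boxes, 1 on each strand, also with 11 CG dinucleotides. The Ass1 window, not printed because its last 63 bases lie in an annotated Ass1 exon, held 1 GC box, 1 CACGTG and 23 CG dinucleotides. Of 27018 promoter windows of the same length, 13% held TATAAA, 34.5% CCAAT, 32.9% GGGCGG, 0.381% CAAAGTCCA, 9.56% TTGCNNAA and 6.05% CACGTG, and the median window held 6 CG dinucleotides.

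Depth was 7569779 to 47768610 counts per library, and replicate 1 was the shallower library in 8 of 8 groups. A floor of 3 counts corresponds to 0.0481 to 0.363 CPM, far under every value of the 8 genes. CPM here are counts relative to library size, scaled by TMM factors over the 16 libraries. The whole-gene count of Arid1a does not check the genotype, since the position of the deletion is not stated. It was 55.9 and 63.7 CPM in tumours, 90.6 and 103 CPM in Arid1a/b DKO and 87.5 and 90.1 CPM in Arid1a KO livers at 9 days, against 72.2 and 77.04 CPM in WT livers at 9 days. Arid1b had 24.5 and 25.7 CPM in livers of the DKO, against 38.05 and 52.8 CPM in WT livers at 9 days. Cyp2b10, a drug-inducible cytochrome P450, was at 1835 to 2130.3 CPM in the 4 agonist-treated livers. In the 30-day DMSO livers it was 324 CPM (Arid1a KO) and 354 CPM (WT) in replicate 1, against 8.94 CPM (Arid1a KO) and 0.499 CPM (WT) in replicate 2, so the replicate 1 DMSO libraries stand apart in this gene and the agonist results are also given without one of them. Replicates differed by far more than sampling noise in every group, and none was merged.

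Per kilobase of exon, the 8 genes spanned a 26.5-fold range of median level in the 4 WT DMSO livers. Cps1 was the highest with a median of 976 CPM per kb (lowest 527, highest 1154), followed by Arg1 at 705 (454 to 817) and Ass1 at 551 (424 to 698). Asl had a median of 204 CPM per kb (103 to 266) and Otc of 153 (121 to 165). The 2 carriers were lower, Slc25a13 at 89 (76.4 to 103) and Slc25a15 at 82.5 (62 to 96.7), and Nags, which makes a regulator and not a pathway intermediate, was the lowest at 36.9 (32.6 to 43.8). Neighbours in this order overlapped within the first 3, between Asl and Otc, and between the carriers. The libraries did not overlap between Ass1 and Asl, Otc and Slc25a13, or Slc25a15 and Nags. The length used is the union of all annotated exons, over 1 transcript for Cps1 and 8 for Asl. Where that union is longer than the transcripts expressed, the level per kb is too low. The order was not tested with other lengths.

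**Figure D1:**
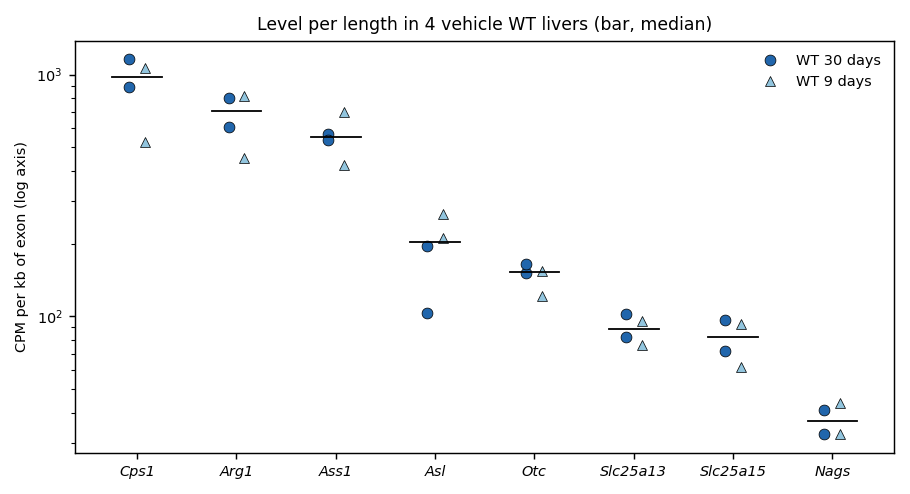
Level of each gene in CPM per kb of exon (log axis) in the WT DMSO livers of 30 days (circles) and 9 days (triangles), with the median of the 4 libraries as a bar. Cps1, Arg1 and Ass1 lie at 424 CPM per kb or above in all 4 livers and Nags at 43.8 or below.

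Summed over the 8 genes, levels were 5429 and 7189 CPM in the tumours, 8874 and 6096 in Arid1a/b DKO livers and 4697 and 7258 in agonist-treated Arid1a KO livers. The DMSO Arid1a KO livers had sums of 11174 and 9466 CPM at 30 days and 11829.8 and 9374 CPM at 9 days. The WT livers had 9620.2 and 10123 CPM with agonist, 11224 and 10547 CPM with DMSO at 30 days and 12387 and 7229.5 CPM with DMSO at 9 days. The 6 lowest sums were those of both tumours, both agonist-treated Arid1a KO livers, replicate 2 of Arid1a/b DKO and replicate 2 of the 9-day WT livers. Cps1 made up 40.4% to 57.6% of the sum in the 16 libraries, and Otc between 1.73% (replicate 1 of Arid1a/b DKO) and 9.26% (replicate 1 of agonist-treated Arid1a KO). In these bulk samples fewer hepatocytes and less RNA per hepatocyte cannot be told apart.

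**Figure D2:**
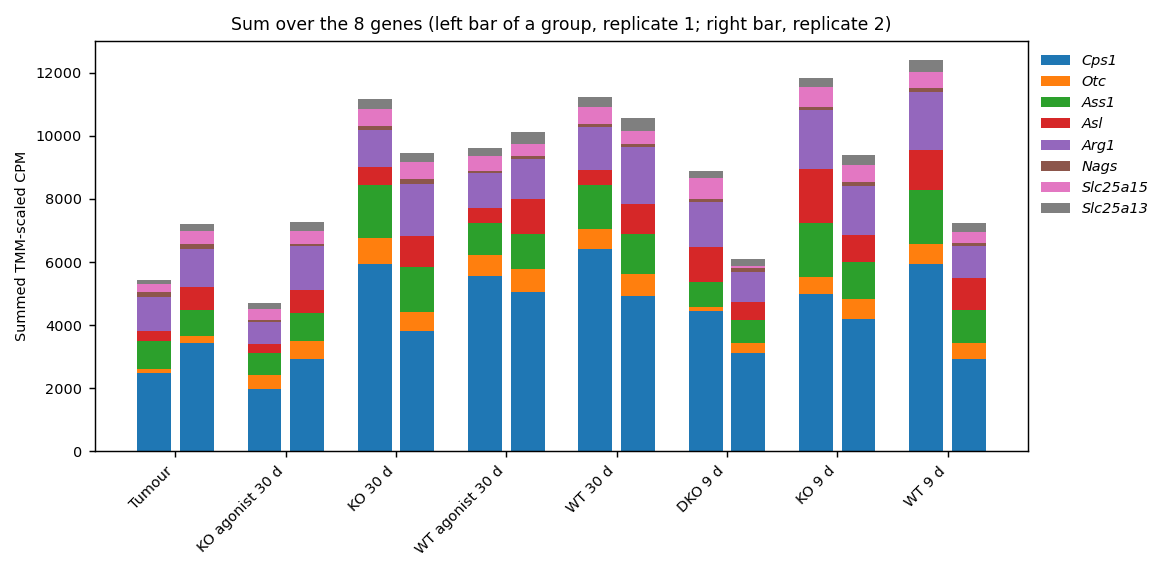
Stacked TMM-scaled CPM of the 8 genes per library, by group, with replicate 1 as the left and replicate 2 as the right bar of each pair. The sums are lowest in replicate 1 of the agonist-treated Arid1a KO livers (4697 CPM) and of the tumours (5429 CPM), and highest in replicate 1 of the 9-day WT livers (12387 CPM).

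Tumours were compared with the 4 DMSO livers of each genotype. Otc and Slc25a13 were lower against both genotypes, Ass1 was lower against Arid1a KO livers, and Nags was higher against WT livers. Of the 8 genes, 2 were called lower and 1 higher against WT livers and 3 lower against Arid1a KO livers. Among all genes, 36.6% were called against WT livers (16.1% lower and 20.5% higher) and 33.1% against Arid1a KO livers (15.2% lower). The tumours did not overlap the livers in 4 of the 8 genes against WT and 6 of 8 against Arid1a KO. The shares over all genes were 49.6% and 47.4%. A gene is called at an adjusted p under 0.05 in edgeR's quasi-likelihood test with Benjamini-Hochberg adjustment over all genes. The median log2 fold change of the 8 genes was -0.70 against WT and -0.78 against Arid1a KO livers, beside 0.02 and 0.00 over all genes tested, and 7 of 8 were negative in each, Nags being the exception. With library totals and no scaling factors the same 7 were negative, the median of all genes was 0.21 and 0.20, and 4635 of 6822 calls against WT and 4237 of 6167 against Arid1a KO were higher, beside 3738 of 6667 and 3266 of 6025 with TMM.

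Otc, the mitochondrial enzyme that makes citrulline, stood at 141 and 207 CPM in tumours. The WT DMSO livers had 642 and 698 CPM at 30 days and 652 and 513 CPM at 9 days, and the Arid1a KO livers 815 and 578 CPM at 30 days and 519 and 630.3 CPM at 9 days. Both tumours lay under all 8 livers, and the log2 fold change was -1.84 (SE 0.302, 95% interval -2.50 to -1.19, adjusted p = 0.000722) against WT and -1.86 (SE 0.302, adjusted p = 0.000817) against Arid1a KO livers. The tumour level was 27.9% of the WT level in this fit, the largest relative difference among the 8 genes. Otc was called in all 8 alternative analyses and with each of 6 libraries left out, in both comparisons.

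Slc25a13, the carrier that supplies cytosolic aspartate, had 128 and 196 CPM in tumours. It had 311 and 390.04 CPM in WT livers at 30 days, 365 and 289.998 CPM in WT livers at 9 days, and 284 to 317 CPM in the 4 Arid1a KO livers. The tumours again lay under all 8 livers, at a log2 fold change of -1.06 (SE 0.24, adjusted p = 0.00502) against WT and -0.90 (SE 0.238, adjusted p = 0.0132) against Arid1a KO. It was called in all 8 alternatives, but not without tumour replicate 1, where it was -0.79 (adjusted p = 0.057) against WT and -0.62 (adjusted p = 0.123) against Arid1a KO. Slc25a15, the ornithine carrier, had 259 and 413 CPM in tumours and did not pass the test, at -0.44 (95% interval -1.73 to 0.85) against WT and -0.75 (-2.06 to 0.55) against Arid1a KO.

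Nags stood at 155 and 179.95 CPM in tumours, the highest 2 of its 16 values. It had 92.5 and 117 CPM in WT livers at 30 days, 124 and 92.6 CPM in WT livers at 9 days, and 122 to 134 CPM in the 4 Arid1a KO livers. The log2 fold change was 0.65 (SE 0.238, adjusted p = 0.0487) against WT and 0.41 (SE 0.239, adjusted p = 0.209) against Arid1a KO livers, and the tumours lay above all 8 livers. Against WT the call was lost with any 1 of the 6 libraries left out, with adjusted p from 0.0638 to 0.252, and in 1 of 8 alternatives, with only 30-day livers as controls (adjusted p = 0.0875). Cps1, the enzyme Nags activates, had 2474 and 3435 CPM in tumours, with log2 fold changes of -0.76 (SE 0.339, adjusted p = 0.0979) against WT and -0.68 (SE 0.338, adjusted p = 0.139) against Arid1a KO. Nags and Cps1 had fold changes of opposite sign, of which only that of Nags against WT was called.

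In the cytosolic arm, Ass1 had 868 and 849 CPM in tumours, against 1022 to 1684 CPM in the 4 WT livers and 1172 to 1714 CPM in the 4 Arid1a KO livers. Its log2 fold change was -0.64 (SE 0.244, adjusted p = 0.0558) against WT and -0.81 (SE 0.246, adjusted p = 0.025) against Arid1a KO, and the second call was lost without tumour replicate 1 (adjusted p = 0.0852), without tumour replicate 2 (0.0635) and without replicate 1 of the 9-day Arid1a KO livers (0.07). It was also lost in 2 of 8 alternatives, with library totals (adjusted p = 0.0517) and with no other libraries in the fit (0.0822). Asl, with 325 and 708 CPM in tumours, was at -0.82 (95% interval -1.97 to 0.34) against WT and -0.96 (-2.12 to 0.21) against Arid1a KO. Arg1, with 1079 and 1201 CPM in tumours, was at -0.39 (-1.10 to 0.33) against WT and -0.44 (-1.16 to 0.28) against Arid1a KO. Neither Asl nor Arg1 passed the test, and their intervals include a 2-fold decrease.

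**Figure D3:**
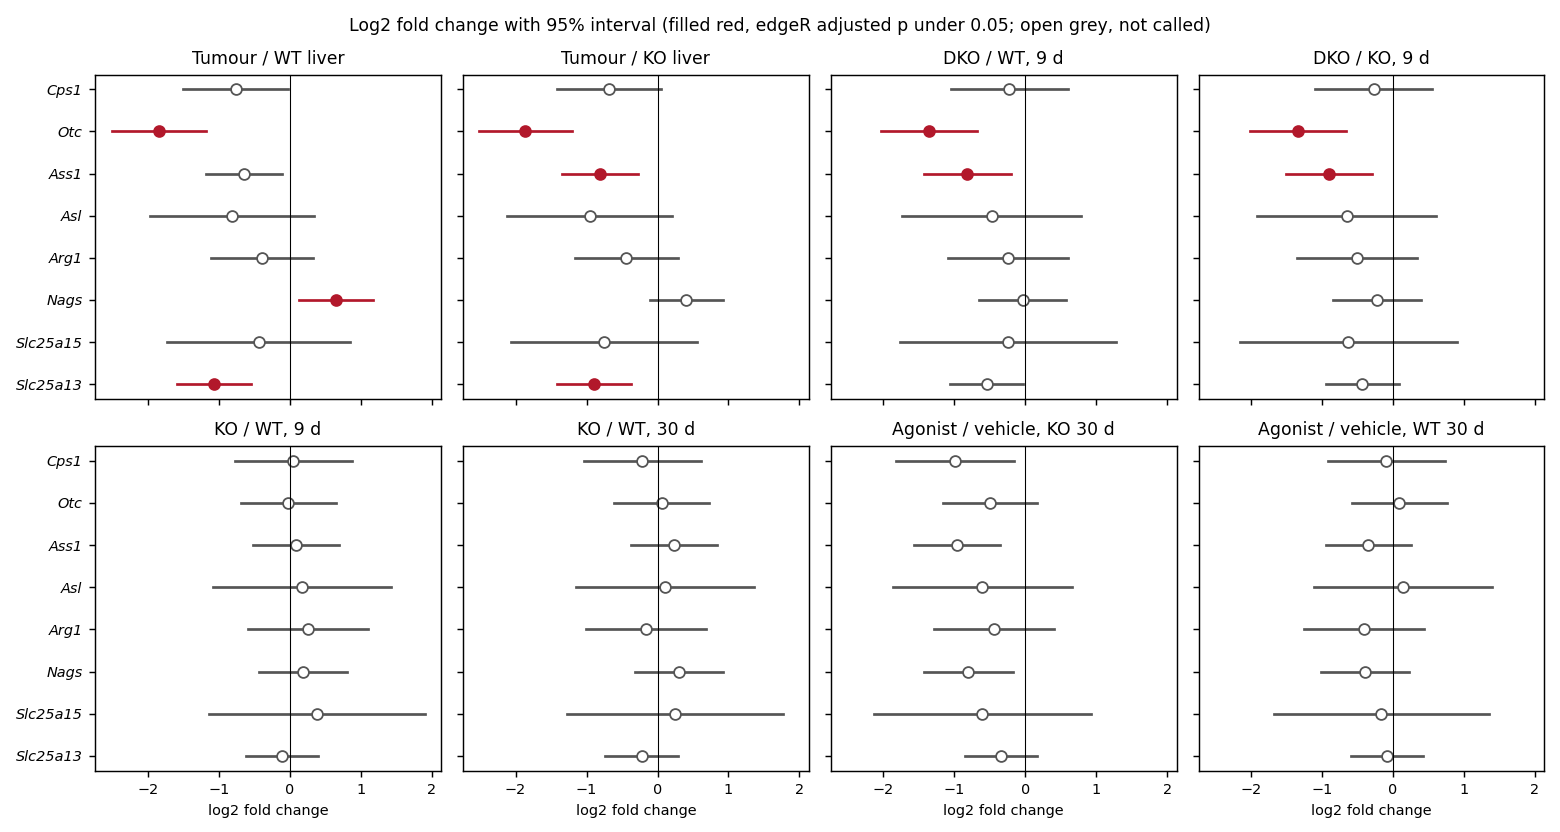
Log2 fold change of each gene in 8 comparisons, with its 95% interval from edgeR; filled red points have an adjusted p under 0.05 and open grey ones do not. Otc lies at -1.84 and -1.86 in the tumour panels and at -1.36 and -1.34 in the Arid1a/b DKO panels, and no gene is called in the lower 4 panels.

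The counts in the lists around the cycle are to be read against the 20.5% of all genes called higher and 16.1% called lower against WT. Against Arid1a KO livers 3266 of all 18193 genes were called higher and 2759 lower. Of 15 genes that use arginine, ornithine or citrulline, 4 were higher and 3 lower against WT livers (median 0.29) and 6 higher and 2 lower against Arid1a KO livers (median 0.31). The proline synthesis genes Pycr1 (4.12, SE 0.396, adjusted p = 2.31e-05) and Aldh18a1 (3.73, SE 0.436, adjusted p = 8.76e-05) and the inducible nitric oxide synthase Nos2 (4.54, SE 0.532, adjusted p = 8.87e-05) rose on the log2 scale against WT. Arg2, the mitochondrial arginase, had 4.08 and 4.65 CPM in tumours, against 0.136 to 0.668 CPM in the 4 WT livers, and rose by 3.51 (SE 0.735, adjusted p = 0.00325). These WT livers held only 2 to 21 counts of Arg2, around the floor of 3 counts, so the size of the rise is poorly known. Oat, which moves ornithine towards glutamate and marks pericentral hepatocytes, had 657 and 1368 CPM in tumours and was at 0.34 (adjusted p = 0.44) against WT and 1.497 (adjusted p = 0.0042) against Arid1a KO livers. Against Arid1a KO livers Pycr1 (3.48), Nos2 (3.86) and Aldh18a1 (3.25) rose as well. Ddah1, which breaks down methylarginines, was higher than in Arid1a KO livers (3.72) but was not called against WT livers (-0.32).

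On the supply side, 4 of 22 genes of nitrogen and aspartate supply were higher and 7 lower in tumours than in WT livers (median -0.50), and 4 were higher and 9 lower than in Arid1a KO livers (median -0.72). Gls2, the liver glutaminase, had 43.2 and 54.3 CPM in tumours, against 470.2 to 642 CPM in WT livers, and fell by 3.58 on the log2 scale (SE 0.338, adjusted p = 2.08e-05). The histidine breakdown genes Hal (-4.63), Uroc1 (-3.94) and Ftcd (-3.70) also fell. Glul, the glutamine synthetase that removes residual ammonia around the central vein, had 2478 and 2579 CPM in tumours, against 871 to 1069.7 CPM in WT livers, and rose by 1.41 (SE 0.278, adjusted p = 0.00226). Against Arid1a KO livers the log2 fold changes were 1.78 for Glul, -3.73 for Gls2 and 3.98 for Arg2, all called. The Arid1a KO livers held 1 to 13 counts of Arg2, around the floor.

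Of 14 tested transport and bicarbonate genes, 3 were higher and 4 lower in tumours than in each genotype of liver. Car5a, the mitochondrial carbonic anhydrase that provides bicarbonate for Cps1, had 5.1 and 22.1 CPM in tumours, against 94.8 to 155 CPM in WT livers, and fell by 3.12 (SE 0.648, adjusted p = 0.00309). Slc7a1, a cationic amino acid importer, rose by 2.32 (adjusted p = 0.00317), as did Slc3a2, the shared heavy chain of amino acid transporters, by 1.74 against WT and 1.84 against Arid1a KO. The glutamine transporter Slc38a3 fell by 1.76 and 1.82, and the aspartate carrier Slc25a12 fell by 0.95 against Arid1a KO livers. Of 16 regulators, 8 were lower and 1 higher against WT livers (median -0.88), among them Ppara (-2.04, adjusted p = 0.000727), Nr3c1, the glucocorticoid receptor (-0.89, adjusted p = 0.00414), Prox1 (-1.51, adjusted p = 0.00443) and the mitochondrial deacetylase Sirt3 (-1.29, adjusted p = 0.00644). Against Arid1a KO livers 8 were lower and 2 higher, with Ppara at -1.75.

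Cell type markers moved as well in the tumours, but these lists share genes with those above, so the counts are not separate evidence. Hal, Sds and Gls2 are both periportal and supply genes. Glul, Oat and Rhbg among the pericentral markers, and Hnf4a and Tat among the hepatocyte markers, also stand in the lists around the cycle. Cyp2e1 is in both the hepatocyte and the pericentral list. Periportal markers were lower in 5 of 8 against WT (median -2.78), with summed levels of 920.3 and 1530 CPM in tumours, against 5526 to 7249 CPM in WT livers. Pericentral markers were higher in 3 of 9 and lower in 1 (median 1.18), with sums of 8973 and 11109 CPM in tumours, against 5583 to 9481 CPM in WT livers. Hepatocyte markers were lower in 2 of 8 (median -0.51), with sums of 20034 and 16448 CPM in tumours, against 20269 to 40656 CPM in WT livers. The top of that range is replicate 1 of the 9-day WT livers, with 18611 CPM of Alb, which was not called (-0.53, adjusted p = 0.453 in edgeR). Of 12 macrophage markers 6 were lower and 1, Cd68, higher (3.96, adjusted p = 0.000131), and of 7 endothelial markers 5 were lower and 1, Lyve1, higher (2.52, adjusted p = 0.00899). Lymphocyte markers were lower in 4 of 8, and 4 of 5 tested erythroid and 2 of 6 neutrophil markers were higher. Of the stellate markers Acta2 (1.78) and Reln (1.06) were called higher and Dcn (-1.68) lower. Of the cholangiocyte markers Cftr (4.47) and Epcam (1.21) were called higher, and the rest of these lists was not called. No marker was at 0 in the tumours, and 1 neutrophil marker was at 0 in each WT DMSO group. Their part in the levels of Otc, Slc25a13, Ass1 and Nags was not tested.

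Arid1a/b DKO livers at 9 days were compared with WT and with Arid1a KO livers of the same day. Otc and Ass1 were lower in both comparisons and the other 6 genes were not called, although all 8 had negative log2 fold changes. Among all genes, 26.4% were called against WT (13.8% lower) and 22% against Arid1a KO (12.1% lower). The median log2 fold change of the 8 genes was -0.36 against WT and -0.57 against Arid1a KO, beside 0.01 and 0.02 over all genes. The shared direction depends on the scaling: with library totals and no scaling factors the median of all genes itself moved to 0.43 and 0.48, and the signs of Cps1, Arg1, Nags and Slc25a15 against WT, and of Cps1, Nags and Slc25a13 against Arid1a KO, turned positive. With those totals 4890 of 6408 calls against WT and 4811 of 6096 against Arid1a KO were higher, beside 2246 of 4710 and 1769 of 3928 with TMM.

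Otc had 153 and 298 CPM in Arid1a/b DKO livers, against 519 and 630.3 CPM in Arid1a KO and 652 and 513 CPM in WT livers of 9 days. The groups did not overlap, as was so for 66.7% of all genes against WT and 66% against Arid1a KO. Among the 8 cycle genes, 3 did not overlap against WT and 4 against Arid1a KO. Otc stood at 38.9% of the WT level, at a log2 fold change of -1.36 (SE 0.307, 95% interval -2.04 to -0.68, adjusted p = 0.0094). Against Arid1a KO it was -1.34 (SE 0.307, adjusted p = 0.0117). The DKO libraries themselves differed 1.94-fold, and without the lower one (replicate 1) the values were -0.95 (adjusted p = 0.0502) and -0.93 (adjusted p = 0.0602). Without replicate 1 of the WT livers the first was -1.19 (adjusted p = 0.0704), and without replicate 2 of the Arid1a KO livers the second was -1.20 (adjusted p = 0.0747). A fit of these 4 libraries alone also lost the call against Arid1a KO (adjusted p = 0.0511).

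Ass1 had 791 and 742 CPM in Arid1a/b DKO livers, against 1714 and 1172 CPM in Arid1a KO and 1684 and 1022 CPM in WT livers. The DKO replicates were close to each other while the livers they are set against spread more widely. The groups did not overlap, as was so for most of all genes in these comparisons. The log2 fold change was -0.82 (SE 0.275, adjusted p = 0.0499) against WT, at the edge of the threshold, and -0.91 (SE 0.276, adjusted p = 0.0382) against Arid1a KO. It was called in 3 of 8 alternatives and 1 of 4 leave-outs against WT, and in 6 of 8 and 1 of 4 against Arid1a KO. Every leave-out except that of WT or Arid1a KO replicate 2 lost the call. Without WT replicate 1 the value was -0.42 (adjusted p = 0.382), and without Arid1a KO replicate 1 it was -0.62 (adjusted p = 0.255).

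Slc25a15 had 667 and 68 CPM in the Arid1a/b DKO livers, the highest and the lowest of its 16 values. These libraries differed 9.81-fold, and only 9 of 9402 genes (0.0957%) with at least 10 CPM differed more between them. WT livers had 524 and 349 CPM and Arid1a KO livers 619.9 and 523 CPM, so the DKO values lay on both sides of each. The log2 fold change was -0.24 (SE 0.689, adjusted p = 0.825) against WT and -0.63 (SE 0.692, adjusted p = 0.544) against Arid1a KO. With replicate 2 as the only DKO liver Slc25a15 was at -2.67 against WT and -3.06 against Arid1a KO, and with replicate 1 alone at 0.59 and 0.20. Each of these fits holds 1 DKO library, so the 9.81-fold gap does not enter its estimate of the spread. Its neighbour in function, Otc, was lower in replicate 1 than in replicate 2, the reverse order.

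The remaining members were not called. Slc25a13 had 220.3 and 227 CPM in Arid1a/b DKO livers, under the 290 to 365 CPM of the WT livers and the 289 and 317 CPM of the Arid1a KO livers, at -0.55 (SE 0.232, adjusted p = 0.105) against WT and -0.44 (adjusted p = 0.203) against Arid1a KO. Cps1 had 4436 and 3128 CPM in Arid1a/b DKO livers, against 5934 and 2929.8 CPM in WT livers (-0.22, 95% interval -1.05 to 0.60). Nags had 76.8 and 133 CPM in DKO livers, against 124 and 92.6 CPM in WT livers (-0.04, -0.66 to 0.58). Asl (1081 and 571 CPM in DKO, 1284 and 1022 CPM in WT) was at -0.48 (-1.73 to 0.78), and Arg1 (1449 and 929 CPM in DKO, 1820.3 and 1011 CPM in WT) at -0.25 (-1.09 to 0.60).

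Car5a, the mitochondrial carbonic anhydrase, had 3.75 and 1.22 CPM in Arid1a/b DKO livers, against 113 and 134 CPM in Arid1a KO and 139 and 94.8 CPM in WT livers, and fell by 5.57 on the log2 scale against WT (SE 0.638, adjusted p = 0.000251), more than any of the 8 cycle genes in any comparison. Oat fell by 2.93 (SE 0.347, adjusted p = 0.000309), to 130.3 and 90.2 CPM in DKO livers, against 1062 and 623 CPM in WT livers. Gls2 fell by 2.19 (adjusted p = 0.0012) and Glul by 2.06 (adjusted p = 0.0022). Arg2, at 3.82 and 0.673 CPM in DKO livers, against 0.161 and 0.668 CPM in WT livers, did not pass the test (2.28, SE 0.907, adjusted p = 0.0864). Against Arid1a KO livers these were -5.65 for Car5a, -1.96 for Oat, -2.45 for Gls2 and -1.65 for Glul, all called, and 2.62 for Arg2 (adjusted p = 0.0684).

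The counts by list are to be read against all 17831 genes tested. Of these, 2246 were called higher and 2464 lower against WT, and 1769 higher and 2159 lower against Arid1a KO. By list, 5 of 15 arginine, ornithine and citrulline genes were higher and 4 lower against WT (median 0.96), with Ddah1 at -3.91 and Aldh18a1 at 3.16 and Pycr1 at 2.77. Of 22 supply genes, 11 were lower and 1 higher (median -0.76), led by Hal (-4.70), Amdhd1 (-4.93) and Prodh (-4.66). Of 14 transport genes, 4 were higher and 5 lower (median 0.25), with Slc7a1 at 3.54, Aqp9, a glycerol and urea channel, at -2.51 and Rhbg, an ammonia transporter, at -4.04. Of 16 regulators, 6 were lower and 0 higher in edgeR (median -0.71, all 16 negative), with Sirt3 at -1.88, Prox1 at -1.59, Nr3c1 at -1.04 and Gcgr, the glucagon receptor, at -0.91. The values nearest 0 were those of Atf4 (-0.11) and Foxo1 (-0.14). The shared sign was not tested with library totals, under which the median of all genes moved up in this comparison. Against Arid1a KO livers the counts were 5 higher and 3 lower, 1 higher and 11 lower, 3 higher and 4 lower, and 0 higher and 7 lower in the same order. There Aldh18a1 stood at 2.65, Ddah2 at 1.29 and the creatine synthesis gene Gatm at 2.35, and Hal (-5.02), Aqp9 (-3.00), Slc38a3 (-1.89) and Sirt3 (-1.99) were lower.

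Markers moved with the DKO genotype, in lists that share genes with each other and with those around the cycle, such as Hal, Gls2, Glul, Oat and Tat. Hepatocyte markers were lower in 5 of 8 against WT (median -1.33), with sums of 13903 and 15575 CPM in DKO livers, against 40656 and 20269 CPM in WT livers. The higher WT sum holds 18611 CPM of Alb, against 4588 CPM in the other WT liver. Alb itself was not called (-1.01, adjusted p = 0.201 in edgeR). Periportal markers were lower in 5 of 8 (median -1.94), with sums of 1867 and 805 CPM in DKO livers, against 5526 and 6359.96 CPM in WT livers. Pericentral markers were lower in 7 of 9 (median -3.26), and their sums were 584 and 629.9 CPM in DKO livers, against 8035 and 5583 CPM in WT livers. Stellate cell markers were higher in 5 of 8 (median 2.59), with sums of 2316 and 1101 CPM in DKO livers, against 264 and 347 CPM in WT livers. The other lists held few calls, with 2246 of all 17831 genes called higher against WT. Called higher were 2 of 7 endothelial markers, with sums of 533 and 529 CPM in DKO livers, against 188 and 358 CPM in WT livers, and 2 of 7 cholangiocyte markers, with sums of 428 and 159 CPM in DKO livers, against 59.7 and 41.3 CPM in WT livers. Of 12 macrophage markers 1 was higher, with sums of 3517 and 2049.7 CPM in DKO livers, against 915.8 and 1729.8 CPM in WT livers. Of 6 tested neutrophil markers 1 was higher, of 5 erythroid markers 1 was lower, and of 8 lymphocyte markers none was called. The part of these cell types in the levels of Otc and Ass1 was not tested.

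Arid1a KO was compared with WT liver under DMSO. This comparison did not give a call for any of the 8 genes at 9 or at 30 days, where 0.566% and 0.516% of all genes were called. At an unadjusted p under 0.05 in edgeR there were 0 of 8 at each time, beside 10.6% and 9.43% of all genes. DESeq2 and limma-trend also called 0 of 8. Log2 fold changes ran from -0.11 (Slc25a13) to 0.39 (Slc25a15) at 9 days and from -0.22 (Slc25a13) to 0.30 (Nags) at 30 days. The intervals limit this: that of Otc was -0.68 to 0.65 at 9 days and -0.61 to 0.72 at 30 days, while that of Slc25a15 reached 1.91 at 9 days and 1.76 at 30 days. Among the surrounding genes, Ddah1, which breaks down methylarginines, was called lower at both times, at -3.66 (SE 0.685, adjusted p = 0.046) and -4.42 (SE 0.713, adjusted p = 0.0254). Of the marker lists only the pericentral marker Slc1a2 was called, lower at 30 days (-2.51, SE 0.342, adjusted p = 0.0117). At 9 days it was at -0.93 (SE 0.324, adjusted p = 0.304). Neither the change of the genotype effect with time (0% of genes called) nor 30 against 9 days in Arid1a KO (0.0112%) or WT livers (0.0224%) gave a call for a cycle gene in edgeR, DESeq2 or limma-trend, and none had an unadjusted p under 0.05 in edgeR, where 1.81%, 6.90% and 9.09% of all genes did.

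The agonist was compared with DMSO within each genotype. In Arid1a KO livers all 8 genes had negative log2 fold changes and none was called (0.869% of all genes were). The median was -0.61, beside -0.02 over all genes, and 3 of the 8 had an unadjusted p under 0.05 in edgeR (12.9% of all genes did): Cps1, Ass1 and Nags. DESeq2 called 1 (Ass1, adjusted p = 0.0233), limma-trend 0, and edgeR with no filter on low counts called 2 (Cps1 and Ass1). Cps1 had 1984 and 2939 CPM in agonist-treated Arid1a KO livers, against 5950.3 and 3826 CPM with DMSO, a log2 fold change of -0.99 (SE 0.377, 95% interval -1.82 to -0.16, adjusted p = 0.294). Ass1 had 697 and 911 CPM with agonist, against 1681 and 1449 CPM with DMSO (-0.96, SE 0.276, adjusted p = 0.157). Nags had 60.8 and 86.4 CPM with agonist, against 124 and 134 CPM with DMSO (-0.80, SE 0.284, adjusted p = 0.251).

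The other 5 genes had unadjusted p over 0.05 in this comparison. Otc had 435 and 549 CPM with agonist, against 815 and 578 CPM with DMSO (-0.50, SE 0.302). Slc25a15 (333 and 404 CPM with agonist, 559.8 and 564 CPM with DMSO) and Slc25a13 (198 and 275 CPM with agonist, 316 and 284 CPM with DMSO) were at -0.61 and -0.34, and their libraries did not overlap. In this comparison 6 of the 8 genes did not overlap between the groups, beside 39.6% of all genes. Asl (-0.61) and Arg1 (-0.44) overlapped between the groups, with 294 and 721 CPM of Asl and 695 and 1374 CPM of Arg1 under agonist, against 568 and 978 CPM and 1161 and 1652 CPM with DMSO. Without replicate 1 of the DMSO Arid1a KO livers, the library with 324 CPM of Cyp2b10, Cps1 was at -0.66, Ass1 at -0.87 and Nags at -0.88, and none was called (adjusted p 0.744, 0.521 and 0.581).

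In WT livers the agonist left 0 of 8 genes called (0.028% of all genes), and none had an unadjusted p under 0.05 in edgeR (3.66% of all genes did) or a call in DESeq2 or limma-trend. Cps1 had 5544 and 5057 CPM with agonist, against 6413 and 4912 CPM with DMSO (-0.10, 95% interval -0.92 to 0.73), and Otc 690.1 and 736 CPM with agonist, against 642 and 698 CPM with DMSO (0.09, -0.58 to 0.75). Ass1 had 1001 and 1092 CPM with agonist, against 1370.1 and 1292 CPM with DMSO (-0.35, -0.95 to 0.26), with no overlap. Here 3 of the 8 genes did not overlap, beside 28.4% of all genes. Nags had 67.4 and 92 CPM with agonist, against 92.5 and 117 CPM with DMSO (-0.39, -1.02 to 0.23). The difference between the genotypes in the response to agonist was tested as an interaction, which gave no call for the 8 genes (0.00561% of all genes) and none with an unadjusted p under 0.05 in edgeR (5.58% of all genes). All 8 interaction terms were negative, from -0.03 (Arg1) to -0.89 (Cps1, SE 0.529, 95% interval -2.06 to 0.27), and that of Arg1 turned positive with library totals (0.16) and without replicate 1 of the DMSO WT livers (0.16). Without that library, which had 354 CPM of Cyp2b10, 0 of 8 genes were called for agonist in WT livers, all at an adjusted p of 1 in edgeR, with Cps1 at 0.10.

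Under agonist, Arid1a KO livers were also set against WT livers directly, where 4.95% of all genes were called and 0 of 8 cycle genes. All 8 values were negative, with a median of -0.43 beside -0.01 over all genes, and 1 gene, Cps1, had an unadjusted p under 0.05 in edgeR, as did 21.5% of all genes, so this count is not a result about the cycle. Cps1 stood at 46.5% of the WT level (-1.10, SE 0.378, adjusted p = 0.12), was called by DESeq2 (adjusted p = 0.0303) and was not called by limma-trend. With library totals and no scaling factors the median of all genes moved to 0.22 in this comparison and to 0.16 for agonist against DMSO in Arid1a KO, and Arg1, Nags and Slc25a15 turned positive in the first while all 8 stayed negative in the second. The calls over all genes split into 829 higher of 1063 in the first and 113 of 153 in the second with those totals, beside 543 of 883 and 98 of 155 with TMM. These comparisons share libraries and are not independent of each other.

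Oat was called lower under agonist in Arid1a KO livers, with 25.7 and 29 CPM, against 274 and 326 CPM with DMSO. It fell by 3.45 on the log2 scale (SE 0.357, adjusted p = 0.00332), and against agonist-treated WT livers (290 and 441 CPM) by 3.73 (SE 0.362, adjusted p = 0.00169). In WT livers, with 604 and 913 CPM of Oat under DMSO, the agonist value was -1.05 (SE 0.327, adjusted p = 0.732). With DMSO at 30 days Oat was at -1.34 in Arid1a KO against WT livers (SE 0.329, adjusted p = 0.14). Neither was called. The interaction term of Oat was -2.40 (SE 0.465) with an adjusted p of 0.219, so a difference in response between the genotypes was not called. Ddah1 was higher with agonist in Arid1a KO livers (3.97, adjusted p = 0.0266), and in agonist-treated Arid1a KO livers Aldh18a1 was higher (3.65, adjusted p = 0.00979) and Fh1, the fumarase that takes up the fumarate released by Asl, lower (-0.99, adjusted p = 0.0417) than in agonist-treated WT livers. Pericentral markers were called lower in 2 of 9 with agonist in Arid1a KO livers (median -0.92), with sums of 3838 and 4049.8 CPM under agonist, against 8508 and 3616 CPM with DMSO. Hepatocyte markers held no call in edgeR (median -0.68, all 8 negative), and their sums did not overlap, at 18507 and 16241 CPM with agonist, against 30278 and 20149.6 CPM with DMSO. Among them Alb was at -0.02, and their shared sign was not tested with library totals. Of 5 tested erythroid markers 1 was called lower, with sums of 175 and 107 CPM with agonist, against 585 and 375 CPM with DMSO. The other 7 marker lists held no call. Their part in these levels was not tested.

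**Figure D4:**
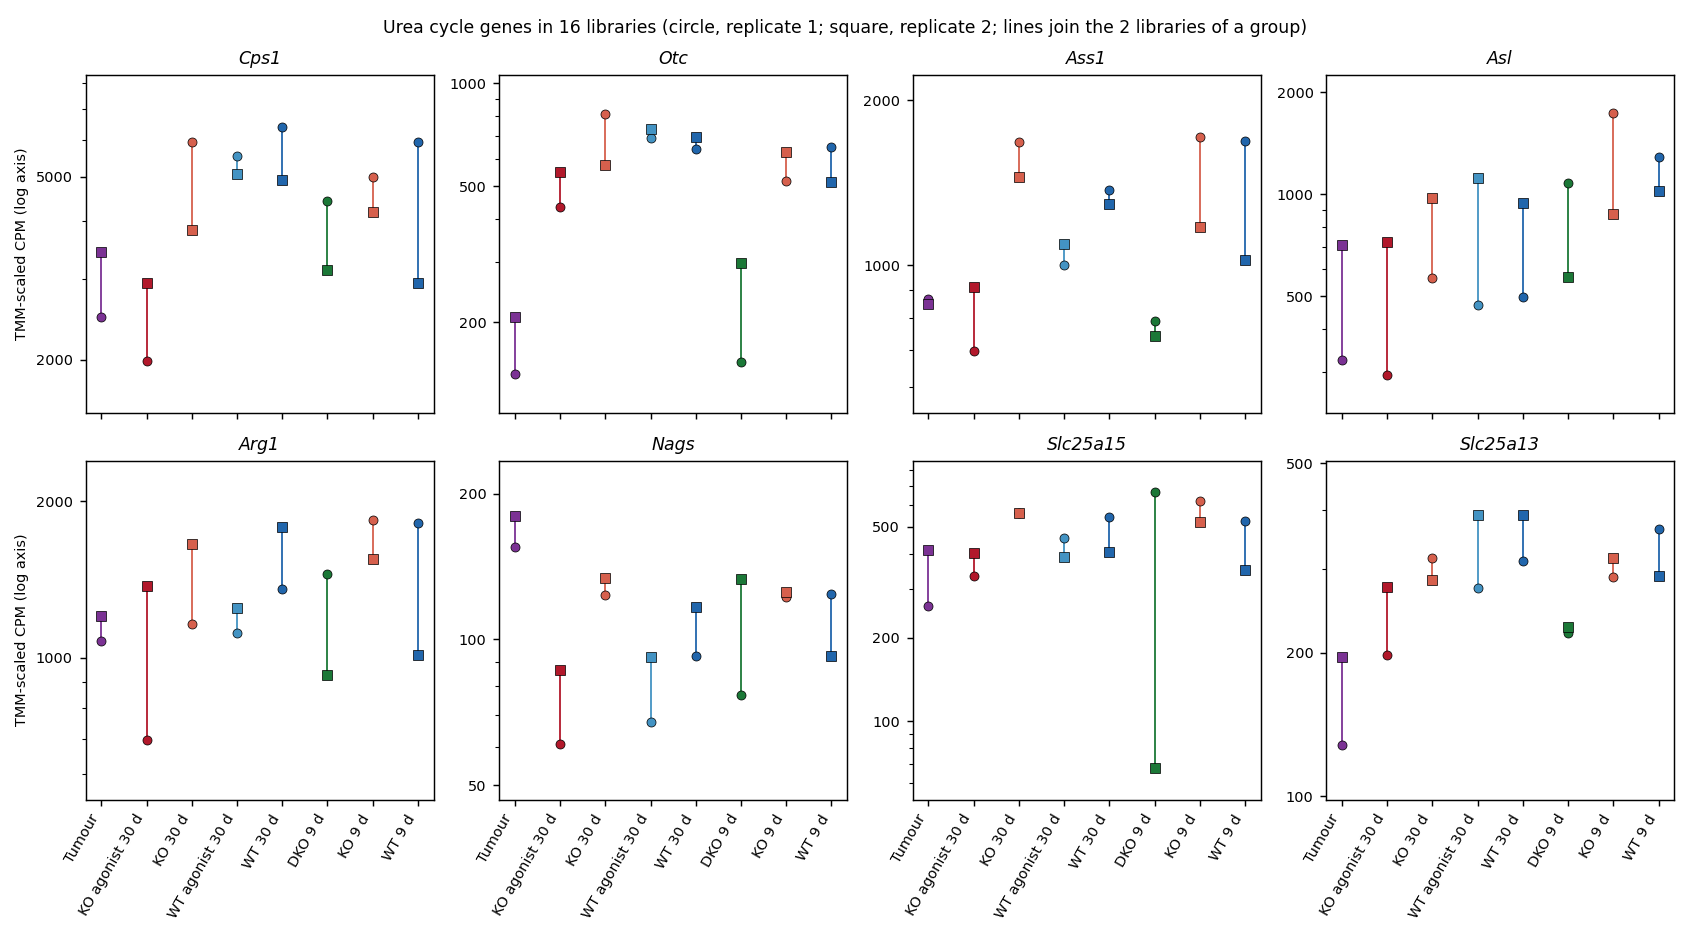
TMM-scaled CPM of each gene (log axis) in the 16 libraries by group, with replicate 1 as a circle, replicate 2 as a square and a line joining the pair. Otc is lowest in tumours (141 and 207) and Arid1a/b DKO livers (153 and 298), Nags is highest in tumours, and the Slc25a15 pair of Arid1a/b DKO livers spans 68 to 667.

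Across the 8 groups the order of mean levels differed by gene. For Otc the tumours were lowest and Arid1a/b DKO livers next, these overlapped, and a gap separated them from all other groups, the nearest being agonist-treated Arid1a KO livers. For Slc25a13 the tumours did not overlap Arid1a/b DKO livers, the next group up, and these overlapped agonist-treated Arid1a KO livers. For Ass1 the Arid1a/b DKO livers were lowest, followed by agonist-treated Arid1a KO livers and tumours, and each neighbour overlapped the next. For Cps1, Arg1 and Asl agonist-treated Arid1a KO livers were lowest, and every neighbour in the order of groups overlapped the next. Nags was lowest in agonist-treated Arid1a KO livers and next lowest in agonist-treated WT livers, which overlapped.

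Between the replicates of a group, 45 of 64 pairs of gene and group differed by less than 1.5-fold and 5 by more than 2-fold. In most of these pairs, though not all, the gap was wider than the median gap of genes with at least 10 CPM in that group. Asl had the most regular gap. Its replicate 1 was the lower library in tumours and in all 4 groups of 30-day livers, with log2 differences to replicate 2 of -1.296 to -0.78, and the higher library in all 3 groups of 9-day livers, with differences of 0.33 to 0.99. The median ratio between replicates was 1.94-fold for Asl, against 1.13- to 1.40-fold for the other 7 genes. Genes with a larger gap than Asl made up 2.19% of those with at least 10 CPM in agonist-treated Arid1a KO livers and 2.46% in agonist-treated WT livers, but 28.7% in WT livers at 9 days. The intervals of Asl reached more than 1.1 on either side of its value in every comparison of livers, so changes of that size could not be called.

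**Figure D5:**
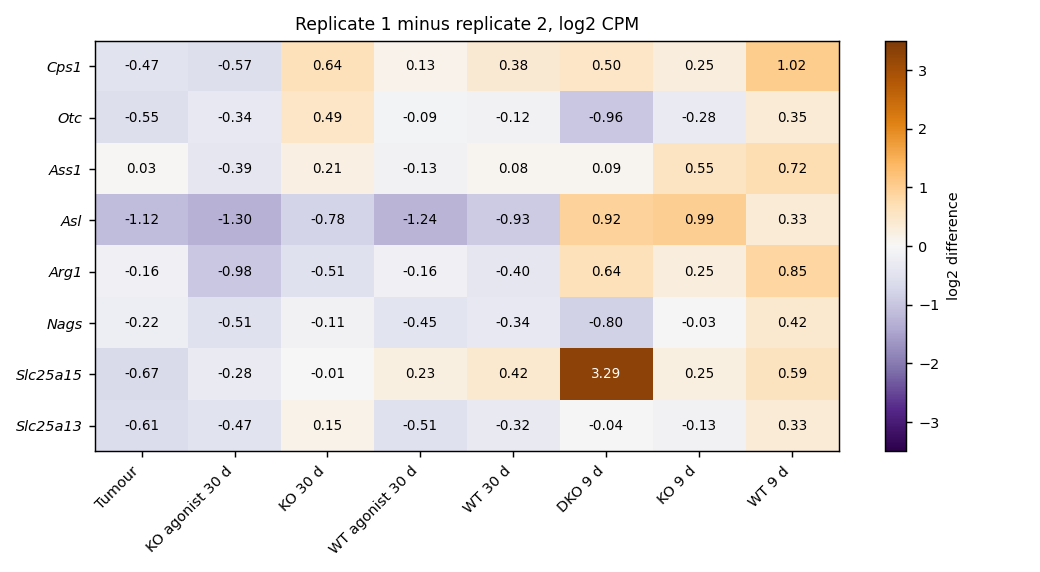
Log2 CPM of replicate 1 minus replicate 2 for each gene (down) and group (across), with the value printed in each cell. Asl runs from -1.296 to -0.78 in tumours and 30-day livers and from 0.33 to 0.99 in 9-day livers, and Slc25a15 reaches 3.29 in Arid1a/b DKO livers.

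The genes most like each member in pattern were found by the root mean square difference of centred log2(CPM + 1) over the 16 libraries, among 9025 genes with a mean of at least 10 CPM. Such likeness is a description of libraries that share depth and group, and no p is given. Otc was nearest to Met (0.217), Mgam (0.227) and Isoc1 (0.233), beside a median of 0.821 over the pool. Slc25a13 was nearest to Sod2 (0.122), Trak1 (0.134) and Ppa2 (0.135), the closest matches of any member. Cps1 was nearest to Cdc37l1, Hnf4a and Mtus1 (0.296 to 0.297), Ass1 to Dmgdh, Mpst and Tspan31 (0.207 to 0.229), Arg1 to Proser2, Zfp672 and Mpnd (0.236 to 0.257) and Nags to Pym1, N6amt1 and Mrm3 (0.19 to 0.218). Asl was nearest to Slc37a4 (0.312), Tk1 (0.318) and Crcp (0.364), and Crcp starts 42 bases beyond the Asl gene on chromosome 5, on the other strand. Slc25a15 had the poorest matches, Malat1 (0.353), Gch1 (0.399) and Bhmt2 (0.513). Within the cycle the closest pair was Ass1 and Arg1 (0.308), and the nearest member to Otc was Slc25a13 (0.484).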

How the data were processed

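Reads were processed with fastp, STAR 2.7.3 and featureCounts on the mouse genome GRCm38.p6 (mm10), per the submitters' processing notes, which name no annotation release or strand setting. The authors deposited a raw count for each gene in each library, and these counts were tested. The authors also deposited a table of normalized signal values. Every value there was 1 factor per library times the count, within a relative tolerance of 0.001.

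All 14 liver libraries entered 1 fit in edgeR 4.0.16 (R 4.3.3): filterByExpr, TMM, the quasi-likelihood F test and 1 coefficient for each group (17831 genes, 7 residual degrees of freedom). The 2 tumour comparisons used a fit of all 16 libraries (18193 genes, 8 degrees of freedom) and the mean of the 9- and 30-day DMSO groups of a genotype. Benjamini-Hochberg adjustment ran over all genes, with a threshold of 0.05. Each SE was derived from the F statistic. The labels call the libraries biological replicates without naming animals, so p-values refer to these samples. Each p sets a difference against a spread estimated over all groups of the fit and drawn towards that of other genes. It does not rest on the compared groups alone. Floors cover counting error only.

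Members, gene lists and tests were chosen with earlier results of these data known. All 8 members are named, together with up to 4 called genes of smallest p in each surrounding list, and Arg2, Oat, Glul, Gls2 and the carbonic anhydrase gene listed as Car5a where a member was called. Promoter windows are shown where protein sequences had been planned. Exon lengths are GENCODE M21 exon unions, which matched 96.2% of symbols. The alternatives tried were scaling by RLE factors, keeping all genes, DESeq2 1.42.0, limma-trend (limma 3.58.1) on the normalized values, the replicate number as a block, other libraries in the fit, other control livers, each library left out (a lone sample is then assumed to vary like the other groups), and, added after seeing the data, library totals without TMM factors. The edgeR steps were tested on simulated counts.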

Additional observations from a re-analysis of the deposited data

Results flagged for a closer look

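Ass1 differed in direction between the treatments when Arid1a KO livers were set against WT livers at 30 days. Under agonist its log2 fold change was -0.38, with 697 and 911 CPM in Arid1a KO livers, against 1001 and 1092 CPM in WT livers. With DMSO it was 0.23, with 1681 and 1449 CPM in Arid1a KO livers, against 1370.1 and 1292 CPM in WT livers. Every Arid1a KO library lay under the WT libraries with agonist and above them with DMSO, which is why it is listed here. The groups did not overlap, in either direction, for 50.1% of all genes with agonist and 33.1% with DMSO. The difference itself, tested as the interaction of agonist and genotype in edgeR, was -0.61 (SE 0.387) with an unadjusted p of 0.143 and an adjusted p of 1, and it was not called.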

How the results depend on the processing

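No called value reversed. Apart from leave-outs, 827 of 848 values of single genes kept their side of the threshold, 11 lost a call, 10 gained one, and 19 uncalled values changed sign; of 512 leave-out values, 487 kept it, 21 lost and 4 gained a call, and 77 uncalled values changed sign. In Arid1a/b DKO against WT the 2 calls became 1 (Otc) with all 16 libraries in the fit, RLE scaling, library totals, limma-trend and only the libraries compared in the fit. Leave-outs gave 0 to 2, with 0 without WT replicate 1. Against Arid1a KO the 2 calls became 1 with library totals, 0 with only the libraries compared and 1 in each leave-out. With no low-count filter there were 5 calls for tumours against WT livers (Asl and Cps1 added), 5 against Arid1a KO livers (Asl and Slc25a15 added), 2 for agonist in Arid1a KO livers and 1 for Arid1a KO against WT under agonist. DESeq2 gave 1 call in each of the last pair. Leave-outs gave 1 to 4 calls for tumours against WT and 1 to 3 against Arid1a KO, with 1 (Otc) without tumour replicate 1. The cause of these shifts was not tested.

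Counts over all genes moved most without the low-count filter, to 1018 (101 as reported) and 942 (92) for Arid1a KO against WT at 9 and 30 days, 393 (5) and 1353 (155) for agonist in WT and Arid1a KO, 2468 (883) for Arid1a KO against WT under agonist, 493 (1) and 151 (0) for the interactions with agonist and time, and 938 (4) and 705 (2) for 30 against 9 days in WT and Arid1a KO. DESeq2 gave 480, 412, 111, 671, 1840, 132, 1, 275 and 106 in the same order, and limma-trend 138, 125, 32, 208, 1107, 6, 0, 18 and 1. With only the libraries compared these were 195, 0, 5, 9, 666, 1, 0, 69 and 0.

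The labels give the replicate number no meaning, and correlations of their deviations over 28 pairs of groups ran from -0.15 to 0.48 (median 0.101), with 14 of 28 over 0.1. Among the 4 groups of 30-day livers they ran higher, from 0.22 to 0.48. This is a hint from the data that same-numbered 30-day livers deviated together, and nothing in the labels ties them. With the replicate number as a block, 2 and 2 cycle genes were called for Arid1a/b DKO against WT and Arid1a KO, 3 and 3 for tumours and 0 elsewhere, and Otc in Arid1a/b DKO against WT was at -1.39 (adjusted p = 0.00954). The block gave 5344 calls over all genes in that comparison, beside 4710. For agonist in Arid1a KO livers the block gave adjusted p of 0.246 for Cps1, 0.138 for Ass1 and 0.162 for Nags.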
